A study of Mus musculus with 8 samples.

Results

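The genes described here are 8 markers of mesothelial cells, Msln, Upk3b, Upk1b, Lrrn4, Krt8, Krt18, Krt19 and Wt1, in RNA from isolated white adipocytes of the mouse epididymal fat pad. They were taken by gene symbol from a table of 30387 genes, each matched 1 row, and all 8 RNA-seq libraries of the study were used. WT mice and Ad-Yap/Taz-KO mice were fed a standard diet (SD, called normal chow in the labels) or a high-fat diet (HFD) for 4 weeks, with 2 mice and 2 libraries in each of the 4 groups. The diets began at week 5 of age by the description of the data set, and at 6 weeks by the methods of the study. Ad-Yap/Taz-KO mice carry floxed alleles of Yap1 and of Wwtr1, which encodes TAZ, together with a constitutive Cre recombinase under the adiponectin promoter. This promoter is active in adipocytes, so the mesothelial cells of these mice were not the target of the deletion. The WT mice were littermates. As controls the methods name tamoxifen-treated littermates with floxed alleles of both genes. Whether this held for the WT littermates of the constitutive Cre line is not given in the sources used here.

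The mesothelium is the single layer of epithelium-like cells that lines the body cavities and covers the organs in them, including the surface of visceral fat pads. Its cells make keratins like an epithelium, yet arise from mesoderm and carry the transcription factor Wt1. When epididymal fat is digested to release adipocytes, surface cells can enter the suspension, and in bulk RNA fewer cells of a type and less RNA per cell cannot be told apart. Wt1 is also known from progenitor cells of visceral fat, so in this tissue it is not exclusive to mesothelium.

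Promoter sequence was at hand for 4 of the 8 genes, and both promoters that hold the core motif of the TEAD factors, the DNA-binding partners of YAP and TAZ, are shown because the study deleted those coactivators. The motif searched was GGAATG, or CATTCC on the other strand, in the bases before the most upstream annotated start. The sequences are from RefSeq, build GRCm38.p6, printed 5′ to 3′ on the strand of the gene with the motif in capitals: Upk3b at chr5:136038246-136038495 on the plus strand and Lrrn4 at chr2:132880892-132881112 on the minus strand.
Upk3b: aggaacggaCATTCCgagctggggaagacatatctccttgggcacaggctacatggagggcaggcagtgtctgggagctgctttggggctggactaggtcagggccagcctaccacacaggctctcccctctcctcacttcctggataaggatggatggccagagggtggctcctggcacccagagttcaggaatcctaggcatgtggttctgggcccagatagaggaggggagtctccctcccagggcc
Lrrn4: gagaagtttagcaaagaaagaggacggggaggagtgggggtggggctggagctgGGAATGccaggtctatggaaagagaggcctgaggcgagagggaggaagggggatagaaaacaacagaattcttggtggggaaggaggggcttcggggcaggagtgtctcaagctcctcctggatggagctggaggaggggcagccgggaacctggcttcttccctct
The match began 241 bases before the start in Upk3b and 167 bases before it in Lrrn4. Of 32851 mouse promoters, 12.6% held the motif in their first 250 bases and 11.5% in their first 221 bases. The windows of Krt8, with 110 bases, and Krt18, with 214 bases, held no match. A match describes these letters and not a site of binding.

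The values are normalized counts, that is, whole numbers the authors made by scaling the reads on each gene with a size factor for its library. Reads counted on genes ranged from 14.0 to 22.3 M per library, and 1 read was worth between 0.795 and 1.1 normalized counts. A value of 0 means that no read was counted, which allows an expected count of up to 3 reads by a one-sided 95% Poisson limit, lower than the upper end of the two-sided intervals used for other values. Wwtr1 was lower in Ad-Yap/Taz-KO mice on both diets, with 2441 and 1957 against 5594 and 4743 normalized counts on SD and 2060 and 2707 against 7121 and 6807 on HFD. Yap1 had 1669 and 1699 against 2776 and 2717 on SD, and 1549 and 2068 against 2468 and 2333 on HFD, where it was not called (adjusted p = 0.0591 by limma). Whole-gene values include exons outside the floxed parts and RNA of cells other than adipocytes. Adipocyte markers were abundant in every library, with a summed count of 81816 to 347053 over 8 genes, the lowest in replicate 2 of the Ad-Yap/Taz-KO HFD group. The WT HFD pair differed least, with a median absolute log2 difference of 0.254 over the 18800 genes tested against 0.304 to 0.415 in the other pairs, so its values are given library by library.

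Of the mesothelial surface proteins, Msln encodes mesothelin, a membrane-anchored glycoprotein (ENSMUSG00000063011, chromosome 17, 25748614 to 25754327, minus strand of GRCm38). Its normalized counts were 2 and 9 in WT SD mice, 3 and 28 in Ad-Yap/Taz-KO SD mice, 15 and 19 in WT HFD mice, and 0 and 2 in Ad-Yap/Taz-KO HFD mice. The highest library was therefore replicate 2 of the Ad-Yap/Taz-KO SD group, and the lowest pair was the Ad-Yap/Taz-KO HFD group.

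Upk3b and Upk1b encode uroplakins, membrane proteins of the bladder lining that mesothelial cells also make. Upk3b (ENSMUSG00000042985, chromosome 5, 136038496 to 136046487, plus strand) had normalized counts of 37 and 28 in WT SD mice, 34 and 73 in Ad-Yap/Taz-KO SD mice, 36 and 58 in WT HFD mice, and 9 and 93 in Ad-Yap/Taz-KO HFD mice. Its lowest and its highest value thus came from the same group. Upk1b (ENSMUSG00000049436, chromosome 16, 38773184 to 38800203, minus strand) had 10 and 18, 3 and 20, 12 and 7, and 4 and 42 normalized counts in the same order of groups. All 4 groups overlapped for Upk1b.

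Lrrn4, which encodes a leucine-rich repeat membrane protein (ENSMUSG00000043110, chromosome 2, 132868305 to 132880891, minus strand), had normalized counts of 28 and 15 in WT SD mice, 0 and 21 in Ad-Yap/Taz-KO SD mice, 60 and 63 in WT HFD mice, and 4 and 33 in Ad-Yap/Taz-KO HFD mice. The WT HFD libraries were above the other 6, and the first library of each Ad-Yap/Taz-KO group was near or at 0.

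The keratins Krt8 and Krt18 form the intermediate filaments of simple epithelia as partners, and their genes lie 23874 bases apart, start to start, on chromosome 15. Krt8 (ENSMUSG00000049382, 101996711 to 102004342, minus strand) had normalized counts of 0 and 2 in WT SD mice, 6 and 4 in Ad-Yap/Taz-KO SD mice, 0 and 2 in WT HFD mice, and 0 and 21 in Ad-Yap/Taz-KO HFD mice. With a mean of 4.38 it was under the minimum mean of 5 and was not tested. Krt18 (ENSMUSG00000023043, 102028216 to 102032026, plus strand) had 2 and 7, 0 and 7, 8 and 2, and 0 and 14 normalized counts in the same order, a mean of 5 that only just met the minimum. Replicate 2 of the Ad-Yap/Taz-KO HFD group was the highest library for both partners. Both genes have processed pseudogenes, and reads aligned to several places were left out, so their values are uncertain. Krt8 also shares 101 exon bases with Gm36026 on the opposite strand.

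Krt19, a keratin of simple and ductal epithelia (ENSMUSG00000020911, chromosome 11, 100140810 to 100148665, minus strand), had normalized counts of 11 and 2 in WT SD mice, 1 and 55 in Ad-Yap/Taz-KO SD mice, 10 and 13 in WT HFD mice, and 0 and 14 in Ad-Yap/Taz-KO HFD mice. Replicate 2 of the Ad-Yap/Taz-KO SD group stood above the other 7 libraries.

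Wt1, the Wilms tumour transcription factor (ENSMUSG00000016458, chromosome 2, 105126529 to 105173616, plus strand), behaved differently from the other markers. It had normalized counts of 142 and 151 in WT SD mice, 240 and 212 in Ad-Yap/Taz-KO SD mice, 46 and 54 in WT HFD mice, and 310 and 531 in Ad-Yap/Taz-KO HFD mice. No group overlapped another: the order from high to low was Ad-Yap/Taz-KO on HFD, Ad-Yap/Taz-KO on SD, WT on SD and WT on HFD. Of the 3 steps between neighbours in this order, the last passed the test (given below with the diets) and the other 2 did not.

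**Figure D1:**
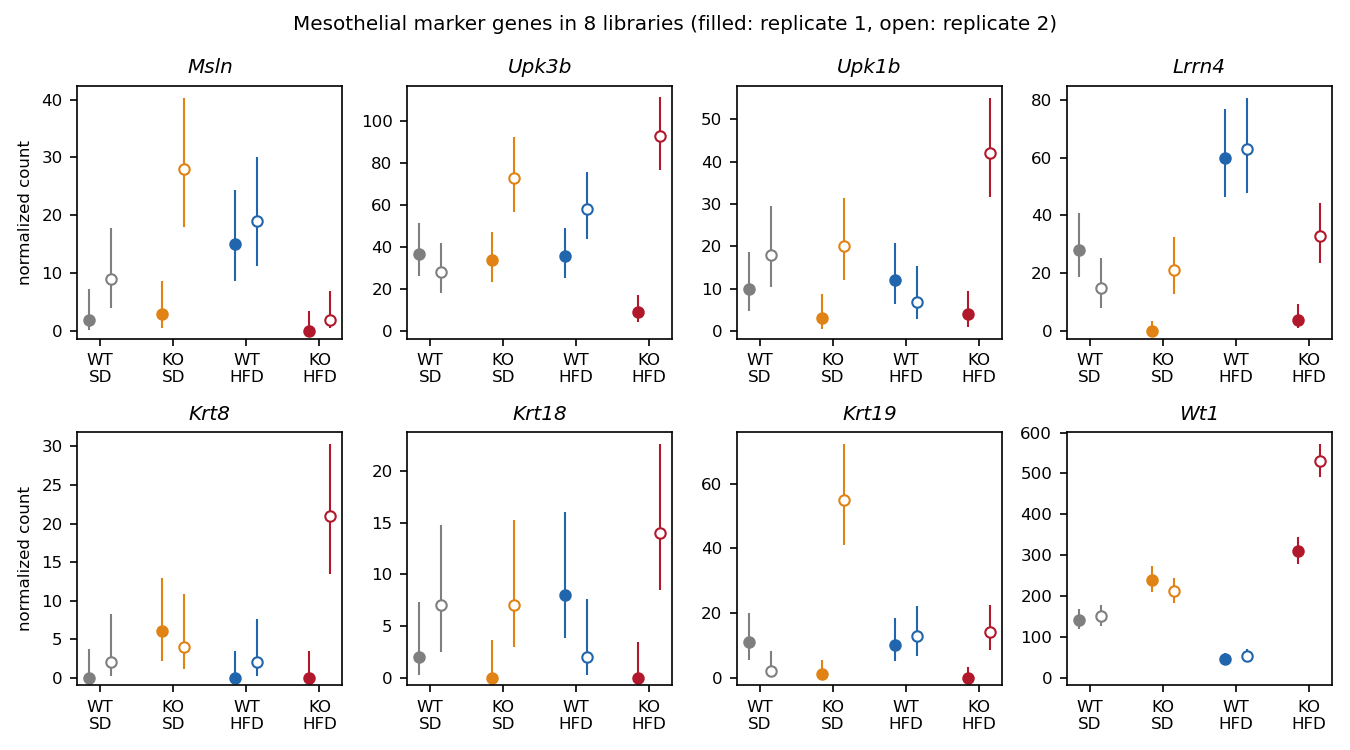
Normalized counts of the 8 mesothelial marker genes (vertical axes, 1 scale per gene) in the 4 groups, with KO for Ad-Yap/Taz-KO; filled points are replicate 1, open points replicate 2, and bars are 95% exact Poisson intervals for counting error only. In the Ad-Yap/Taz-KO HFD group replicate 2 lies above replicate 1 for all 8 genes, while Wt1 separates the groups.

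Per kilobase of exon, Wt1 had the highest mean level over the 8 libraries, with 34.0 normalized counts per kilobase. Upk3b followed with 13.0. Lrrn4, Krt19 and Upk1b lay close together at 7.54, 7.14 and 6.94, and Krt18, Msln and Krt8 were the lowest at 3.48, 3.18 and 2.23 normalized counts per kilobase. The ranges of these last 6 genes over the libraries overlapped, from 0 in 5 of them.

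The summed level of the 7 markers other than Wt1 differed widely between the mice of both Ad-Yap/Taz-KO groups, and little between those of the WT groups. It was 5.80 and 5.10 normalized counts per M (1000000) of the library in WT SD mice and 6.72 and 7.88 in WT HFD mice. In Ad-Yap/Taz-KO mice it was 3.04 and 12.3 per M on SD, and 0.989 and 14.7 per M on HFD. The 4 WT libraries thus lay between the extremes of the Ad-Yap/Taz-KO libraries. The 95% exact Poisson intervals of the Ad-Yap/Taz-KO pairs did not meet, at 2.22 to 4.02 against 10.6 to 14.1 per M on SD and 0.579 to 1.54 against 13.0 to 16.5 per M on HFD. Reads carry no molecular identifiers, so these intervals cover counting error only.

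In summed normalized counts, replicate 2 was 12.9 times replicate 1 in the Ad-Yap/Taz-KO HFD group and 4.43 times in that group on SD. The ratio was 0.9 in WT SD mice and 1.16 in WT HFD mice. Taken gene by gene, the median absolute log2 difference between replicates of the 6 tested members without Wt1 was 3.17 on HFD and 2.93 on SD in Ad-Yap/Taz-KO mice, against medians of 0.387 and 0.415 over all genes tested. In WT mice it was 0.511 on HFD and 1.137 on SD, against 0.254 and 0.304, so single markers differed more between WT mice than the median gene did, although their sum did not. Counting error is larger on the log2 scale at low counts, and genes of like level were not compared. A sum of several genes is also not a like measure to a single gene. Wt1 itself differed by 0.77 on the log2 scale between the Ad-Yap/Taz-KO replicates on HFD, and by 0.09 to 0.23 in the other 3 pairs.

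The direction between replicates was shared most fully in the Ad-Yap/Taz-KO HFD group, where replicate 2 was higher for 8 of the 8 genes, beside 48.1% of all genes tested. It was higher for 6 of 8 in that group on SD, for 6 of 8 in WT HFD mice and for 5 of 8 in WT SD mice. Replicate 2 of the Ad-Yap/Taz-KO HFD group was the highest library for 5 of the 8 markers, and replicate 1 of the same group was at 0 for 4.

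Of 12 further mesothelial genes listed, 11 were in the table and Calb2 was not. Of these 11 genes, 10 were higher in replicate 2 of the Ad-Yap/Taz-KO HFD group and 7 in that of the SD group. In WT mice 4 of these genes were higher in replicate 2 on HFD and 3 on SD. Their summed count had a ratio of replicate 2 to replicate 1 of 1.54 in the Ad-Yap/Taz-KO HFD group and 0.892 in the SD group, but Cldn15 and Pdpn, the most abundant of them, made up 775 of the 888 normalized counts in replicate 1 on HFD. Without these 2 genes, a choice made after seeing the data, the sum went from 113 to 521 normalized counts on HFD (4.61 times) and from 206 to 382 on SD (1.85 times). The lists of other cell types moved less between the same mice than the 7 markers. From replicate 1 to replicate 2 of the Ad-Yap/Taz-KO HFD group, the summed count of fibroblast and progenitor markers went from 68613 to 76849, that of macrophage markers from 15905 to 16254, and that of endothelial markers from 20308 to 31107, while adipocyte markers went from 164222 to 81816. Epididymal epithelium, another keratin source beside this fat pad, was represented by 7 of 11 listed genes. The others, Krt5, Pax2, Lcn5 and Lcn8, were not in the table. The sum of the 7 genes was 23 and 54 normalized counts in the Ad-Yap/Taz-KO HFD group and 3 to 21 in the other 6 libraries. In each library 2 to 5 of the 7 genes were at 0. Cldn7, the most abundant of them, made up 14 and 28 of the 23 and 54 normalized counts. Crisp1 and Adam7, defining genes of that epithelium chosen after their values were seen, were at 11 normalized counts each in replicate 2 of the Ad-Yap/Taz-KO HFD group and at 0 in the other 7 libraries. Epcam, of the same list, went the other way in this group, from 7 to 0, and Pax8 was at 2 and 1. The part of epididymal cells in the keratin values of that library was not tested. In the Ad-Yap/Taz-KO SD group, where the 7 markers were higher in replicate 2, the fibroblast, macrophage and endothelial sums were lower there, with ratios of 0.638, 0.619 and 0.548, and the adipocyte sum was higher, with a ratio of 1.45.

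**Figure D2:**
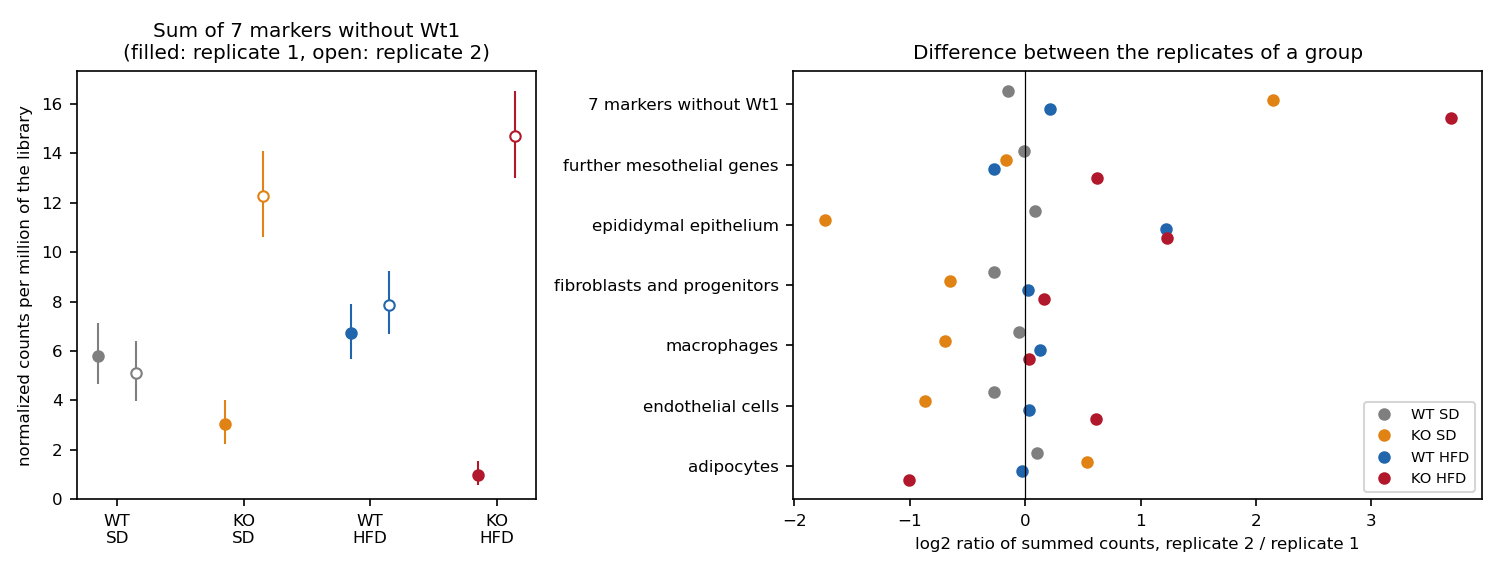
Left, summed normalized counts per M of the 7 markers without Wt1 in each library with 95% exact Poisson intervals (counting error only); right, log2 ratio of summed normalized counts between replicate 2 and replicate 1 of each group for the marker lists. KO stands for Ad-Yap/Taz-KO; its ratios for the 7 markers, 12.9 on HFD and 4.43 on SD, lie farther from 0 on the log scale than those of the other lists.

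The 7 members with a mean of at least 5 were tested with limma on log2(value + 1) in 1 fit of all 4 groups, and calls needed a log2 difference of 0.59 or more in size and a p of 0.05 or less after Benjamini-Hochberg adjustment over all 18800 genes. With 2 mice a group, an exact permutation test of a single gene could not go below p = 0.333. All differences below are on the log2(value + 1) scale, which understates the change of low genes.

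On HFD, Ad-Yap/Taz-KO mice had more Wt1 RNA than WT mice, and Msln was the only other member called. Of the 7 tested members, 1 was called higher and 1 lower, beside 17.1% and 15.1% of all genes tested. Wt1 rose by 3.0 ± 0.30 (log2, SE; adjusted p = 1.27e-05 by limma), with 310 and 531 against 46 and 54 normalized counts. Its adjusted p stayed at or under 0.000957 in every alternative, the other scalings and the fits without 1 library included. Msln was lower by a log2 difference of -3.37 ± 1.21 (SE; adjusted p = 0.0470 by limma). This call sits at the limit: it was kept without either Ad-Yap/Taz-KO library on SD, and lost without each of the other 6 libraries, among them replicate 1 (-2.58) and replicate 2 (-4.16) of the Ad-Yap/Taz-KO HFD group, and with the WT HFD pair as 1 sample (adjusted p = 0.174).

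The other 5 tested members were not called on HFD. Lrrn4 had a log2 difference of -2.26 ± 1.25 (SE; adjusted p = 0.182 by limma), although the groups did not overlap, with 4 and 33 against 60 and 63 normalized counts. Krt19 had -1.68, Upk3b -0.61, Krt18 -0.42 and Upk1b 0.52, with 95% intervals between -5.12 and 2.97 that all held 0. Without replicate 2 of the Ad-Yap/Taz-KO group, Upk3b was called lower (-2.22; adjusted p = 0.0460 by limma), and without replicate 1 its difference was 1.01. Among the tested members, groups did not overlap for 1 higher and 2 lower, beside 36.5% and 33% of all genes. The median difference of the 7 members was -0.61, beside 0.09 over all genes tested.

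On SD no member was called between the genotypes by limma, beside 4.71% of all genes, and none had an unadjusted p under 0.05. Wt1 was nearest, with 240 and 212 against 142 and 151 normalized counts and a log2 difference of 0.62 ± 0.30 (SE; adjusted p = 0.320 by limma). Among the tested members, groups did not overlap for 1 higher (Wt1) and 0 lower, beside 22.8% and 22.2% of all genes tested. Krt8, which was not tested, also had groups that did not overlap, with 6 and 4 against 0 and 2 normalized counts. The intervals of the other 6 tested members held 0 and reached from -4.91 (Lrrn4) to 4.26 (Krt19), so these values leave room for large differences in either direction. Without replicate 2 of the Ad-Yap/Taz-KO SD group, Lrrn4 was called lower (-4.43; adjusted p = 0.0497 by limma), with 0 against 28 and 15 normalized counts. In such a fit the group holds 1 library, which is assumed to vary like the other groups. The median difference of the members was 0.62, beside -0.01 over all genes tested.

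In WT mice, Wt1 fell by 1.54 ± 0.30 (log2, SE; adjusted p = 0.00555 by limma) from SD to HFD, the only member called, beside 18% of all genes in either direction and 9.22% lower. Its groups of 142 and 151 against 46 and 54 normalized counts stood apart. The call was lost without replicate 1 on SD (-1.58; adjusted p = 0.0580) and without replicate 1 on HFD (-1.42; adjusted p = 0.0507), and with the WT HFD pair as 1 sample (-1.53; adjusted p = 0.0512), all by limma. Msln and Lrrn4 went the other way without passing the test, at 1.71 ± 1.21 and 1.54 ± 1.25 (log2, SE; adjusted p = 0.339 and 0.407 by limma), and both had HFD libraries above both SD libraries. Groups did not overlap for these 2 members higher and 1 lower, beside 31.4% and 33.6% of all genes. In a fit of these 2 groups alone Lrrn4 was called (1.54; adjusted p = 0.0421 by limma). The members' median difference was 0.49, beside -0.08 over all genes tested.

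In Ad-Yap/Taz-KO mice no member was called between HFD and SD by limma, beside 1.07% of all genes, and 2 of the 7 had an unadjusted p under 0.05. These were Wt1, at 0.84 ± 0.30 (log2, SE; adjusted p = 0.198 by limma), and Msln, at -2.64 ± 1.21 (log2, SE; adjusted p = 0.320 by limma). Both had groups that did not overlap, in opposite directions, beside 22.7% of all genes higher and 19.3% lower. The intervals of the other 5 held 0. The members' median difference was 0.45, beside 0.03 over all genes tested.

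The interaction asks whether the difference between the genotypes depended on the diet. Wt1 was the only member called (2.38 ± 0.43, log2, SE; adjusted p = 0.00588 by limma), beside 17.4% of all genes in either direction and 8.69% higher: its difference was 3.0 on HFD and 0.62 on SD. It stayed called in each fit without 1 library, between 1.99 and 2.77. Msln had the largest estimate, -4.34 ± 1.71 (log2, SE; adjusted p = 0.0967 by limma), and was called (-5.77; adjusted p = 0.0295) only without replicate 1 of the Ad-Yap/Taz-KO SD group. For Lrrn4, with -0.06 ± 1.77 (log2, SE), the sign changed with the scaling.

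**Figure D3:**
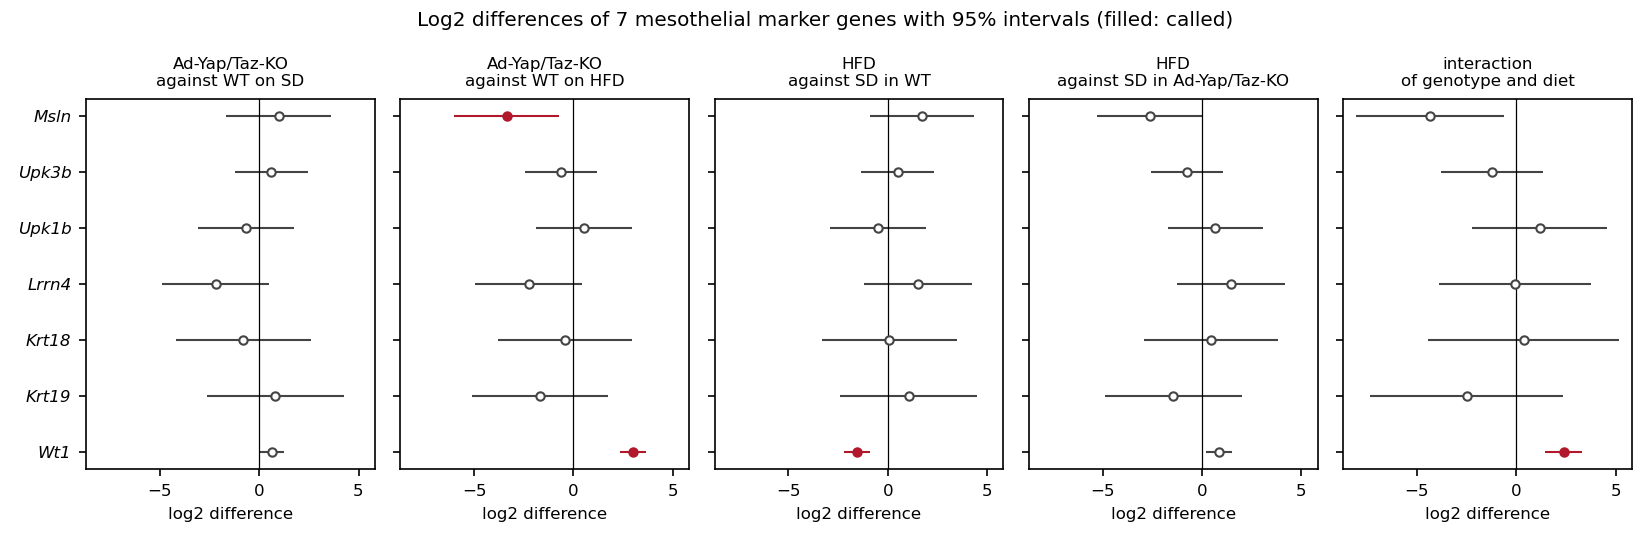
Log2 differences (horizontal axes, log2(value + 1) scale) of the 7 tested members in the 5 comparisons, with 95% intervals from limma; filled red points were called. The intervals of Wt1 are the narrowest in each panel, and Msln on HFD, at -3.37, is the only other filled point.

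Of 11 further mesothelial genes in the table, 10 were tested, and Pdpn and Rspo1 were called in at least 1 comparison. On HFD 2 of the 10 were called higher, beside 17.1% of all genes. Pdpn encodes podoplanin, a glycoprotein of mesothelium, lymphatic vessels and activated fibroblasts. It had 218 and 212 normalized counts in WT SD mice, 388 and 299 in Ad-Yap/Taz-KO SD mice, 107 and 65 in WT HFD mice, and 440 and 530 in Ad-Yap/Taz-KO HFD mice, the same order of groups as Wt1. Pdpn rose by 2.52 ± 0.28 (log2, SE; adjusted p = 2.55e-05 by limma) between the genotypes on HFD, fell by 1.36 in WT mice from SD to HFD (adjusted p = 0.00672) and had an interaction of 1.86 (adjusted p = 0.0102). Rspo1, a secreted activator of Wnt signalling, was called on HFD (1.77 ± 0.59, log2, SE; adjusted p = 0.0356 by limma), with 54 and 126 against 24 and 23 normalized counts. Between the genotypes on SD and between the diets in Ad-Yap/Taz-KO mice 0 of the 10 were called by limma, beside 4.71% and 1.07% of all genes, and 4 and 0 of them had an unadjusted p under 0.05. The median difference of the 10 genes on HFD was 0.50, beside 0.09 over all genes tested. Pdpn went against the list in the other 2 comparisons where it was called: the median was 0.97 between the diets in WT mice, beside -0.08 over all genes, and -1.42 for the interaction, beside 0.10.

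Wt1 also moved with the markers of fibroblasts and progenitors. Pdgfra, which encodes a growth factor receptor of these cells, had 1310 and 993 normalized counts in WT SD mice, 1544 and 1063 in Ad-Yap/Taz-KO SD mice, 402 and 455 in WT HFD mice, and 2789 and 3960 in Ad-Yap/Taz-KO HFD mice. Like Wt1 it was lowest in the WT HFD pair and highest in the Ad-Yap/Taz-KO pair on HFD. Its difference between the genotypes on HFD was 2.95 ± 0.22 and its interaction 2.79 ± 0.32 (log2, SE; adjusted p = 1.23e-06 and 0.00134 by limma). Of the 8 fibroblast and progenitor markers 6 were called higher on HFD and 0 lower, beside 17.1% and 15.1% of all genes, and the list's summed count was 68613 and 76849 in Ad-Yap/Taz-KO mice against 21910 and 22320 in WT mice. Of the 8 macrophage markers 7 were called higher, with sums of 15905 and 16254 against 1376 and 1506, and of the 8 adipocyte markers 7 were called lower, with sums of 164222 and 81816 against 347053 and 339725. Of the 7 endothelial markers 3 were called higher, and the 1 epididymal epithelium gene that could be tested was not called. These lists were written with earlier results of these data known. None of the 8 fibroblast markers was at 0 in any library, and their part in the Wt1 values was not tested.

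**Figure D4:**
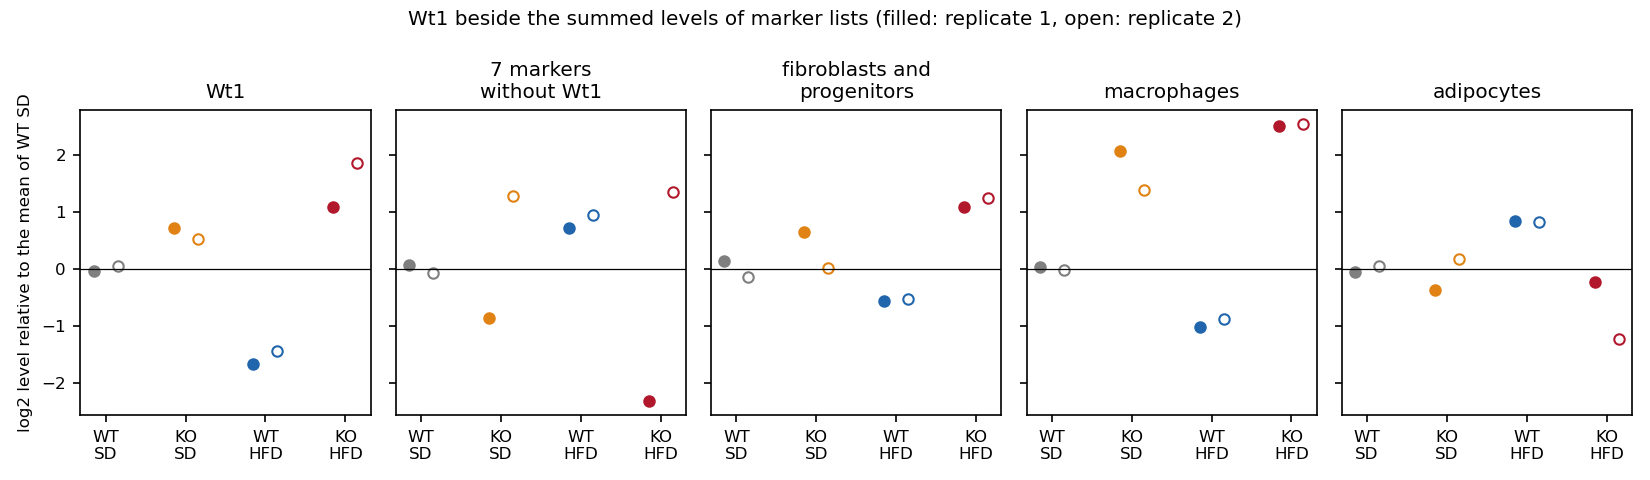
Log2 level of Wt1 and of the summed normalized counts of 4 marker lists, each relative to the mean of the WT SD libraries (vertical axis), in the 4 groups, with KO for Ad-Yap/Taz-KO; filled points are replicate 1 and open points replicate 2. Wt1 has the order of groups of the macrophage list, lowest in WT HFD and highest in KO HFD, while the 7 other markers spread within the KO groups.

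Across the 8 libraries the members other than Wt1 tended to go together. The median Pearson correlation of log2(value + 1) over their 21 pairs was 0.61, with a range of -0.14 to 0.95, and over the 7 pairs with Wt1 it was -0.07, with a range of -0.62 to 0.57. The points share libraries, size factors and low counts, so this is a description.

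The genes most like the members were ranked over 14570 genes with a mean of at least 20, by Pearson correlation over the 8 libraries with the mean of the members' standardised log2 values. The first was Zfp383, a zinc finger gene (r = 0.98), with 25 and 37 normalized counts in WT SD mice, 16 and 56 in Ad-Yap/Taz-KO SD mice, 26 and 37 in WT HFD mice, and 13 and 67 in Ad-Yap/Taz-KO HFD mice. Ighg2c, an immunoglobulin heavy chain gene of plasma cells, was the next (r = 0.95), with 4 and 58, 10 and 317, 24 and 21, and 0 and 590 normalized counts in the same order. In both, replicate 2 was the higher library of each Ad-Yap/Taz-KO pair, as in most of the members. Nhp2l1, Gm43216, Pcdhgb1, Tpp2, Hnrnpr, Cdh24, Pkhd1l1 and Xrra1 completed the 10, with r from 0.91 to 0.87. Pkhd1l1 was the only one of them in the list of further mesothelial genes, with 36 and 99, 63 and 110, 78 and 86, and 21 and 180 normalized counts, and the median r of the 7 genes of that list with a mean of at least 20 was 0.18. Of the 10 genes, 5 stayed among the first 10 after scaling to the same total.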

How the data were processed

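The authors prepared stranded total RNA libraries after ribosomal depletion, trimmed single-end reads with Reaper, aligned them to GRCm38 (mm10) with STAR 2.5.2b, counted reads on exons with featureCounts 1.5.1, without reads shared between genes or with more than 1 place of alignment, and ran DESeq2 1.14.1. Whether the counting used the strand is not given in the sources used here. The values the authors deposited are a score: gene counts scaled by a size factor of the library and then rounded, so count models were not run. The table's comparisons by the authors (fold changes and p-values) were not used.

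The value of 1 read was estimated from the spacing of the whole numbers in each library. Exon lengths and overlaps came from GENCODE vM21, which holds 30259 of the 30387 identifiers. limma 3.58.1 in R 4.3.3 (lmFit, contrasts.fit, eBayes with trend) was fitted on log2(value + 1) to 18800 genes whose mean reached 5, with 4 residual degrees of freedom, and tested on simulated data. Promoters were those of RefSeq, 250 bases before to 50 after each start. Tables and figures were made with Python 3.11.15, numpy 2.4.6, pandas 2.3.3 and matplotlib 3.10.9.

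Sample titles gave the groups and replicate numbers. The members and gene lists were chosen with earlier results of these data known. Named genes are the 8 members, the further mesothelial genes called in any comparison, genes of other cell type lists only where called, the 10 genes most like the members, and the deleted genes. Cldn15, Cldn7, Crisp1, Adam7, Epcam, Pax8, Pi16, Dpp4, Muc16, Col6a5, Col6a6 and Dab2 fall outside this rule and were chosen after their values were seen. Listed genes that the table lacks, Calb2, Krt5, Pax2, Lcn5 and Lcn8, are named as well. Calls were repeated with other pseudocounts, filters, scalings, limits and samples, with the replicate number as a block, and without each library in turn. limma with voom weights, and likeness to Wt1 alone or to the 7 members without it, were chosen after seeing the data. The replicate numbers were taken from the titles and give no shared litter or day.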

Additional observations from a re-analysis of the deposited data

Results flagged for a closer look

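The difference in Wt1 between Ad-Yap/Taz-KO and WT mice depended on the diet by the interaction test in limma (2.38 ± 0.43, log2, SE; adjusted p = 0.00588), which is why it is set out here. The difference was 3.0 on HFD and 0.62 on SD, with 310 and 531 against 46 and 54 normalized counts on HFD and 240 and 212 against 142 and 151 on SD. In alternative settings other than leaving out 1 library, the interaction lay between 2.24 and 2.80 and was called each time, with adjusted p from 0.00358 to 0.0430. With 2 libraries a group, no single group was large enough to test for a library that stood apart. An interaction was not particular to Wt1. It was called higher for 7 of 8 fibroblast and progenitor, 7 of 8 macrophage and 6 of 7 endothelial markers. For 7 of 8 adipocyte markers it was called lower, beside 17.4% of all genes in either direction.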

How the results depend on the processing

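Between the genotypes on HFD, 2 members were called. Only Wt1 was called with 0.1 or 8 as pseudocount, with no filter or with either other scaling. The same held for voom weights and for the WT HFD pair as 1 sample. With a mean of at least 50, Wt1 was the only member tested, and it was called. From SD to HFD in WT mice 1 member was called, 2 when only those groups were fitted and 0 with the WT HFD pair as 1 sample. Scaling to the same total moved all genes by 0.39 between the genotypes on HFD and by -0.41 between the diets in WT mice, and upper-quartile scaling by -0.13 in the latter. The sign of the Lrrn4 interaction changed with a pseudocount of 0.1 (1.42), upper-quartile scaling (0.073), scaling to the same total (0.43) and voom weights (0.34). The sign of Krt18 changed on HFD with a pseudocount of 8 (0.069), and in WT mice with scaling to the same total (-0.23) and upper-quartile scaling (-0.016). In the main fit the Lrrn4 interaction was -0.06 and Krt18 in WT mice 0.085, both small beside the shifts that scaling to the same total gave all genes. What lay behind the changes with other pseudocounts or voom weights was not tested.

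Without each library in turn, the members called ranged from 1 to 2 between the genotypes on HFD, from 0 to 1 on SD, from 0 to 1 between the diets in WT mice and from 1 to 2 for the interaction. Signs changed for Upk3b (-2.22 to 1.01), Upk1b (-1.03 to 2.08), Krt18 (-1.22 to 1.53) and Krt19 (-3.63 to 0.27) on HFD. On SD they changed for Msln (-0.45 to 2.40), Upk1b (-1.85 to 0.54), Krt18 (-1.50 to 0.71), Krt19 (-1.59 to 3.22) and Lrrn4 (-4.43 to 0.030), and in WT mice for Krt18 (-0.62 to 0.88). In Ad-Yap/Taz-KO mice they changed for Upk3b (-2.35 to 0.89), Upk1b (-0.87 to 2.23), Krt18 (-1.05 to 2.41), Krt19 (-3.85 to 0.95) and Lrrn4 (-0.75 to 3.70). For the interaction they changed for Upk3b (-2.84 to 0.39), Upk1b (-0.37 to 2.73), Krt18 (-1.13 to 2.32) and Lrrn4 (-2.29 to 2.17). Leaving out a library took Krt18 under the minimum mean in 4 of 8 fits.

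Over all genes tested, libraries with the same number in different groups did not deviate together (correlations of -0.11 to 0.04). These values gave no sign of pairing by number, but they cannot exclude a shared litter or day, or one that touched few genes. The replicate block called 2 members between the genotypes on HFD, 1 between the diets in WT mice, 1 for the interaction and 0 in the other comparisons, the same counts as without it. Of the 10 genes most like the members, 7 stayed in the first 10 with Spearman correlation, 5 with scaling to the same total and 4 with the 7 members without Wt1. With 2 mice a group and at most 93 normalized counts in any library for 7 of the 8 markers, both counting error and the spread between mice limit what could be detected.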

Other observations

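Wt1 taken alone, a profile chosen after seeing the data, had other neighbours than the 8 markers together. Of the 14570 genes ranked, 805 (5.53%) had a Pearson correlation of at least 0.9 with Wt1 over the 8 libraries, against 5 genes with the mean of all 8 markers. The most like was Col6a5, which encodes a collagen VI chain (r = 0.99), with 4107 and 4446 normalized counts in WT SD mice, 8540 and 6054 in Ad-Yap/Taz-KO SD mice, 784 and 882 in WT HFD mice, and 13956 and 20276 in Ad-Yap/Taz-KO HFD mice. Col6a6, another collagen VI chain (r = 0.99), had 1466 and 1485, 2279 and 1881, 344 and 320, and 2826 and 4129 in the same order. Dab2, an endocytic adaptor (r = 0.99), had 1059 and 841, 1775 and 1228, 331 and 385, and 2140 and 2994. As with Wt1, the WT HFD pair was the lowest and the Ad-Yap/Taz-KO pair on HFD the highest for all 3 genes.

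The median r with Wt1 was 0.93 for the 8 macrophage markers, 0.79 for the 8 fibroblast and progenitor markers, 0.47 for the 7 endothelial markers and -0.92 for the 8 adipocyte markers, beside -0.06 over all genes ranked. Single fibroblast and progenitor markers ranged from 0.12 to 0.97, and single macrophage markers from 0.43 to 0.96. With the mean of the 7 other members, the same medians were -0.26, -0.26, -0.18 and 0.03, beside -0.03. Muc16, which encodes a mucin of mesothelial surfaces that binds mesothelin, was second in likeness to those 7 members (r = 0.91), with 13 and 6 normalized counts in WT SD mice, 9 and 93 in Ad-Yap/Taz-KO SD mice, 62 and 56 in WT HFD mice, and 0 and 79 in Ad-Yap/Taz-KO HFD mice. The list of further mesothelial genes, to which Muc16 belongs, had a median r of only 0.14 with those 7 members over its 7 genes ranked, from -0.60 to 0.91, and Muc16 was chosen after its values were seen. The correlations are descriptions over 8 libraries that share groups and size factors.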
